A study of Homo sapiens with 6 samples.

Results

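SOX9, SOX4, PAX2, PAX8, HNF4A, LHX1, WT1 and EMX2 are transcription factors that build the kidney or hold the identity of its cells. They were followed here in RNA from the polysome fractions of a kidney cancer line. They were taken from the deposited polysome sequencing (polysome-seq) table as the rows whose gene symbol is 1 of these 8 names, among 30345 rows in all. Each of the 8 names matched 1 row. The cells were OSRC-2 (OS-RC-2), a clear cell renal cell carcinoma (ccRCC) line that lacks the VHL tumor suppressor and therefore accumulates the hypoxia-inducible transcription factor HIF2. The 2 groups were cells given 2 µM PT2399, an allosteric inhibitor of HIF2, for 72 h (3 libraries) and cells given vehicle for 72 h (3 libraries), and the comparison asks what the RNAs on polysomes do when HIF2 is blocked. Both groups shared the VHL loss and the culture medium, RPMI-1640 with fetal bovine serum. A single line in culture limits the model. One label of the PT2399 samples gives the dose as 2 mM, whereas the treatment protocol gives 2 µM.

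Polysome-seq sequences the RNA recovered from sucrose gradient fractions heavier than a single ribosome, so a level here reflects both how much of an mRNA a cell holds and how much of it carries several ribosomes. These parts cannot be told apart without total RNA from the same lysates, and in bulk samples neither can fewer cells of a type and less RNA per cell. The deposited table gives, for each gene, the mean normalized count over the 6 libraries, the log2 fold change of PT2399 over vehicle, its standard error (SE) and the adjusted p of the authors' two-sided Wald test. Group levels below are the values that this mean and fold change imply together, so no spread of single libraries stands beside them, and each error is the deposited SE or the 95% interval that it gives under a normal approximation.

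The kidney grows from the nephric duct, whose ureteric bud becomes the collecting ducts, and from the metanephric mesenchyme, whose progenitors become the nephrons from podocyte to distal tubule. PAX2 and PAX8, paired box factors, specify the nephric lineage together, and PAX8 stays on in adult tubule cells and marks most ccRCCs. LHX1, a LIM homeodomain factor, acts with them in the nephric duct and the early nephron, EMX2 is needed in the mouse ureteric bud, and WT1 acts in nephron progenitors and later in podocytes. HNF4A is a nuclear receptor that drives the proximal tubule program. SOX9 and SOX4 belong to the SRY-related HMG box family: SOX9 appears in the ureteric bud and again in tubule cells that are repairing injury, and SOX4 is active in many progenitor cells, the developing kidney among them.

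The SOX factors rose with PT2399, PAX2 fell slightly and PAX8 did not pass the test. Of the 8 factors, 6 had enough counts for an adjusted p. Of these 6, 2 were higher (SOX9 and SOX4), 1 was lower (PAX2) and 3 were not called (PAX8, LHX1 and HNF4A) at an adjusted p of at most 0.05. EMX2 and WT1 lay under the mean count below which the authors' table gives no adjusted p. The background was broad, since 23.0% of the 15634 tested genes were called, 11.3% higher and 11.7% lower. A count of 3 among 6 is too small to set against that share, and the factors were put together with earlier results of these data known. The median log2 fold change of the 6 was 0.22, against 0.00 over all tested genes. It falls between PAX8 (0.05) and the scarce HNF4A (0.39, SE 0.37), neither of them called, so it shows no shift of the group. A change of 1 or more on the log2 scale in either direction was met, together with the adjusted p, by 2.05% of tested genes, and by SOX9 alone of the 8.

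**Figure D1:**
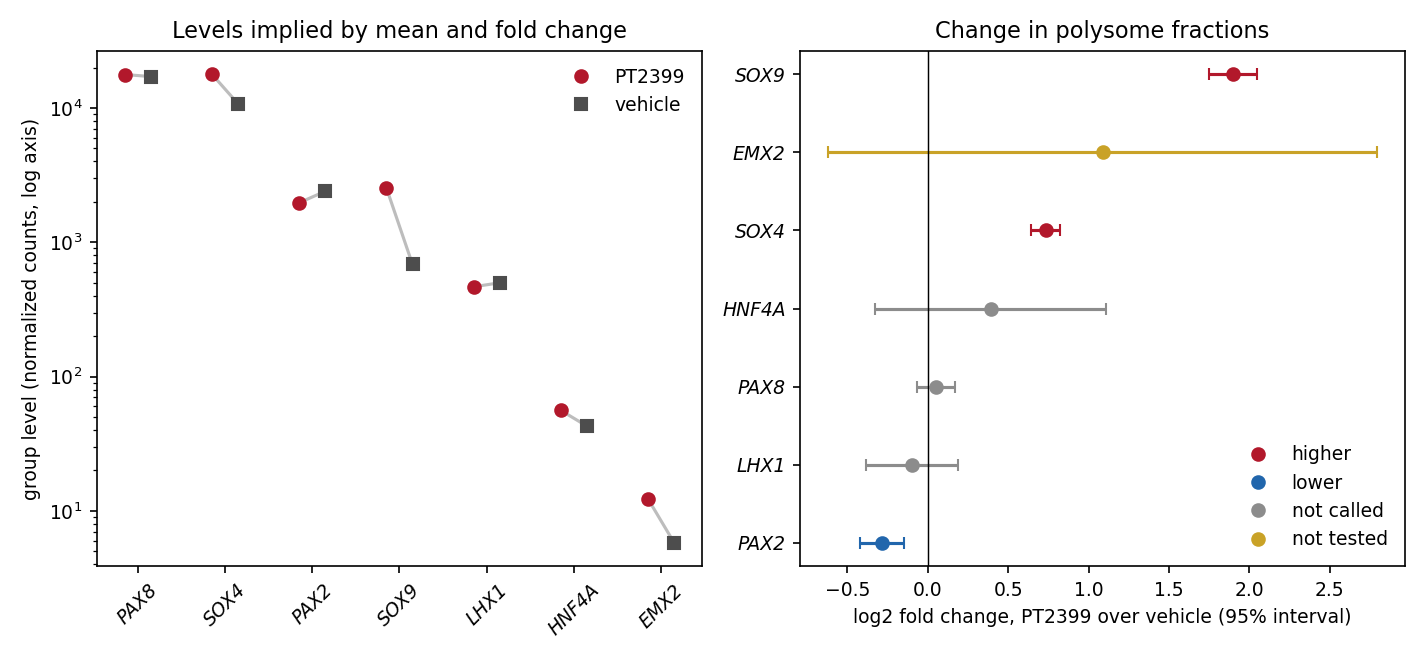
Left, the PT2399 level (red circle) and the vehicle level (grey square) of each factor in normalized counts on a log axis, as implied by the deposited mean and fold change; right, the log2 fold change of PT2399 over vehicle with its 95% interval, coloured by call. WT1, at about 1 normalized count over all libraries together, is left out of both panels; SOX9 stands at 2550 with PT2399 and 684 with vehicle, while the 2 PAX8 marks lie almost level.

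SOX9 (ENSG00000125398; chromosome 17, 72121020 to 72126416, GRCh38) showed the widest change of the tested factors. Its level was 2550 normalized counts in PT2399-treated cells, against 684 in vehicle-treated cells, or 373% of the vehicle level (95% interval 336% to 414%). On the log2 scale it rose by 1.90 (SE 0.08, interval 1.75 to 2.05), with an adjusted p of 8.1e-132 in the authors' Wald test. By size of the rise it ranked 33 among the 1766 genes called higher. Among the 2696 tested genes whose mean count lay within 1.5-fold of its own, the median SE was also 0.08, whereas the median absolute log2 fold change was 0.13.

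SOX4 (ENSG00000124766; chromosome 6, 21593751 to 21598619, GRCh38) was far more abundant and moved less in relative terms. The level was 17880 normalized counts with PT2399, against 10753 with vehicle, which is 166% of the vehicle level (interval 156% to 177%). The log2 fold change was 0.73 (SE 0.05, interval 0.64 to 0.82; Wald adjusted p = 1.2e-53), which ranked 243 among the genes called higher. Its RefSeq gene spans 4869 bases and its MANE Select transcript is equally long, so the gene is a single exon. The log2 fold change of SOX9 exceeded that of SOX4 by 1.16 (interval 0.99 to 1.34, with the errors of the 2 genes taken as independent). Of the other SOX genes only SOX12, SOX13 and SOX7 were tested, and none was called: SOX12, a close relative of SOX4, had 0.08 (SE 0.06), SOX13 had 0.23 (SE 0.16) and SOX7 had 0.14 (SE 0.58) on the log2 scale. A further 10 SOX genes of the list had too few counts for an adjusted p, among them SOX11, the nearest relative of SOX4 beside SOX12, at 0.30, and SOX8, a relative of SOX9, at 0.72.

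PAX2 (ENSG00000075891; chromosome 10, 100735396 to 100829944, GRCh38) was the only one of the 8 called lower, and the change was small. Its level was 1969 normalized counts with PT2399, against 2402 with vehicle, or 82.0% of the vehicle level (interval 74.5% to 90.2%). It fell by 0.29 on the log2 scale (SE 0.07; Wald adjusted p = 4.6e-04). Of the 1828 genes called lower, PAX2 ranked 1256 by size of the fall. Under a Bonferroni correction of the authors' DESeq2 p-values it no longer passed (corrected p = 0.74).

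PAX8 (ENSG00000125618; chromosome 2, 113215997 to 113278921, GRCh38) was the most abundant of the 8 and was not called. Its level was 17782 normalized counts with PT2399, against 17162 with vehicle. The log2 fold change was 0.05 (SE 0.06; Wald adjusted p = 0.62), and the interval of 95.4% to 113% of vehicle bounds any change of this gene closely. Among the 530 tested genes of similar mean, 49.2% were called, and PAX8 was not one of them. PAX2 lay below PAX8 by 0.34 in log2 fold change (interval of the difference -0.52 to -0.16, errors taken as independent). PAX6, an eye and islet factor, was the only other tested PAX gene, at -0.25 (SE 0.14), and was not called, while PAX1, PAX3, PAX4, PAX5, PAX7 and PAX9 had means of at most 4.36 normalized counts.

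LHX1 (ENSG00000273706; chromosome 17, 36936785 to 36944612, GRCh38) was present at a moderate level and did not pass the test. The level was 466 normalized counts with PT2399, against 500 with vehicle (log2 fold change -0.10, SE 0.15, Wald adjusted p = 0.70). Its interval, 76.6% to 114% of vehicle, still includes a fall of the size seen for PAX2. The difference between PAX2 and LHX1 was -0.19 with an interval of -0.50 to 0.13, which spans 0.

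HNF4A (ENSG00000101076; chromosome 20, 44355699 to 44434596, GRCh38) was scarce. Its level was 56.0 normalized counts with PT2399, against 42.7 with vehicle. The log2 fold change was 0.39 (SE 0.37; Wald adjusted p = 0.51), and the interval of 79.8% to 216% of vehicle leaves changes of that width not detectable at this depth.

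EMX2 (ENSG00000170370; chromosome 10, 117542746 to 117549546, GRCh38) had a mean of 9.01 normalized counts, which implies 12.3 with PT2399, against 5.77 with vehicle. Its log2 fold change of 1.09 had an SE of 0.87 and an interval of -0.62 to 2.80, and the table gives no adjusted p. WT1 (ENSG00000184937; chromosome 11, 32387775 to 32435539, GRCh38) had a mean of 0.22, about 1.33 normalized counts over all 6 libraries together, so no change is given for it.

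Levels of different genes can be set side by side only per length, and here the mean count was divided by the length of the MANE Select transcript in kilobases, which assumes that this isoform is the one present. On that scale PAX8 (4309 normalized counts per kb) and SOX4 (2940) stood highest, above 95.7% and 93.0% of the tested genes with a known length. PAX2 (522) and SOX9 (411) were near the middle of tested genes, LHX1 (141) and HNF4A (10.6) were lower, and EMX2 (3.47) and WT1 (0.07) were at the floor. From PAX8 to HNF4A the tested factors spanned 406-fold. With PT2399, SOX9 stood above PAX2 per length, at 649 against 470 normalized counts per kb. With vehicle SOX9 stood at 174 per kb, below PAX2 at 573 and close to LHX1 at 146. PAX8 exceeded PAX2 by 8.26-fold in mean count per kb. SOX4 exceeded SOX9 by 5.66-fold per length with PT2399 and by 12.7-fold with vehicle. Whether neighbours in these orders differ beyond the spread of libraries was not tested, since the table carries no such spread for a level.

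**Figure D2:**
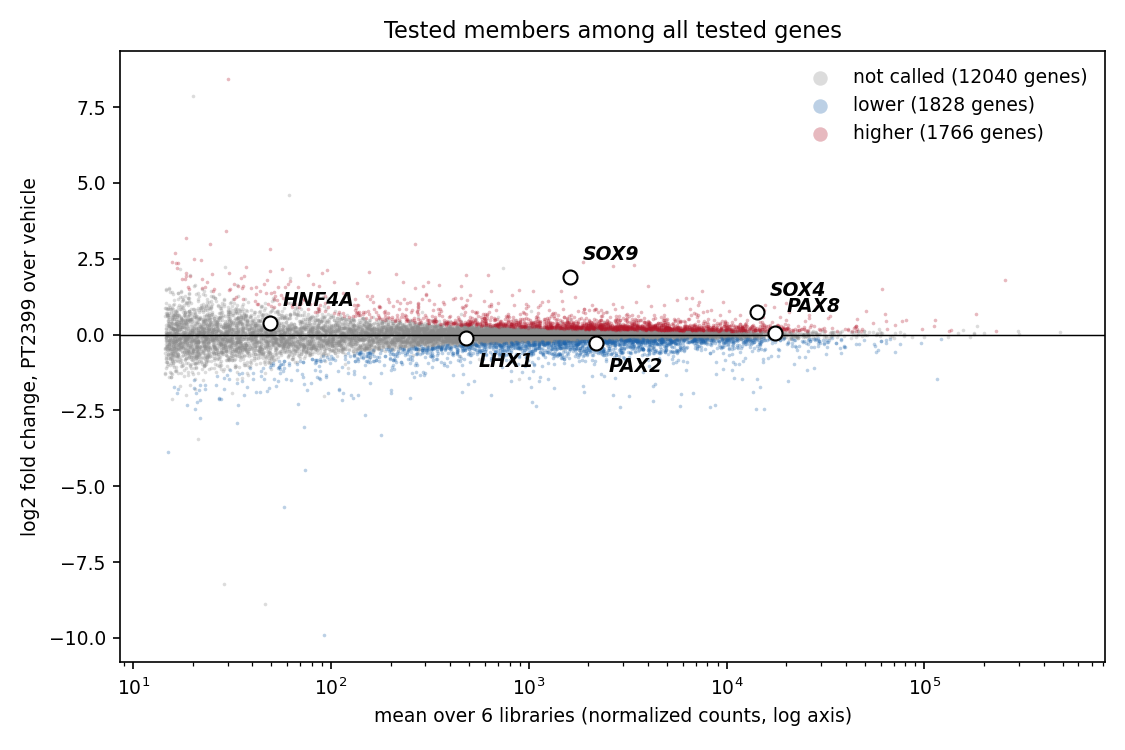
Each dot is 1 of the 15634 tested genes, placed by its mean over 6 libraries (normalized counts, log axis) and its log2 fold change of PT2399 over vehicle; red and blue dots are genes called higher and lower. SOX9, at 1.90, lies above most genes with like means, and SOX4, at 0.73, lies in the upper part of the cloud. PAX8, LHX1 and HNF4A lie within the cloud.

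HIF binds DNA at a short core, and the stretch before the start of transcription is shown for the most abundant factors to let the reader see where such letters fall. The sequences are from RefSeq on GRCh38.p14, and the promoter set used here held 11 start sites for 6 of the 8 factors. SOX9 and LHX1 have RefSeq entries but were missing from that set, so their promoters were not searched. The 250 bases before each start were searched on both strands for ACGTG and GCGTG. These letters are common: 43.2% of 35116 such windows hold at least 1 of them. A match is only a match of letters, and polysome-seq does not measure binding. The windows of SOX4 (plus strand, chr6:21593501-21593750), of the first PAX2 start (plus strand, chr10:100735146-100735395) and of PAX8 (minus strand, chr2:113278922-113279171) are given 5′ to 3′ with the core, read on either strand, in capitals.
SOX4: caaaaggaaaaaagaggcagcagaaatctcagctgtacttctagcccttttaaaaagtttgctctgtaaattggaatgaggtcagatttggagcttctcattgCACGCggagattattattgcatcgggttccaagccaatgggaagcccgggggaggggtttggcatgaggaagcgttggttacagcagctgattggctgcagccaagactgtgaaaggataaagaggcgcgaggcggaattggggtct
PAX2: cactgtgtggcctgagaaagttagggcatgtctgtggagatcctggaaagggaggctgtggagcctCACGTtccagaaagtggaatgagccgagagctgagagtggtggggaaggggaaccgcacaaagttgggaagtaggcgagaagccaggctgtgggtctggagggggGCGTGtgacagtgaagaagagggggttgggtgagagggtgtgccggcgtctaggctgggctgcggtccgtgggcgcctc
PAX8: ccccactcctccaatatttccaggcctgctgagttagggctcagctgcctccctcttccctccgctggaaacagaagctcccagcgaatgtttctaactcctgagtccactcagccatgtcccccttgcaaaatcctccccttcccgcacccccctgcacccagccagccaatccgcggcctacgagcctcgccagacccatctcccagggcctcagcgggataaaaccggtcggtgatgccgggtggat
The SOX4 window holds 1 core, GCGTG on the opposite strand, which begins at position -147 from the start. The PAX2 window holds 2, ACGTG on the opposite strand at -184 and GCGTG on the gene's strand at -79, and the window of the second PAX2 start holds none. The PAX8 window holds none, which says only that these letters are not in this window. SOX4, which rose, and PAX2, which fell, both have a core in a window shown here.

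RNAs from the opposite strand of 4 of these loci also had rows. PAX8-AS1 lies inside the span of PAX8 and was the only one tested, with 17.9 normalized counts with PT2399, against 36.6 with vehicle (log2 fold change -1.03, SE 0.56, Wald adjusted p = 0.19). EMX2OS, which overlaps the start of EMX2, had 16.2 with PT2399 and 5.05 with vehicle. Its log2 fold change was 1.68 (SE 0.80) with no adjusted p. SOX9-AS1 (mean 9.37) and WT1-AS (mean 0.64) were also under the count limit. The library kit keeps the strand, but no source used here says whether counting used it, so reads of overlapping partners may not be separated.

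The nearest tested gene on each side of each factor was looked up in RefSeq. Of these 16 neighbours, 1 was called higher, 2 lower and 13 were not called, where 23.0% of all tested genes were called. So few calls say nothing particular about the neighbours. The higher one was CASC15, a long noncoding RNA gene 67.8 kb beyond SOX4, at 0.67 (SE 0.16, Wald adjusted p = 4.5e-04), beside 0.73 for SOX4. On the other side of SOX4, CDKAL1 had -0.09 (SE 0.09). Next to SOX9, LINC01152, 79.7 kb away, had 0.82 (SE 0.44) and was not called. LINC00511, 472 kb away on the far side, fell by 0.28 (SE 0.09). The other lower call was PDZD8, 167 kb from EMX2, at -0.16 (SE 0.05). Neither tested neighbour of PAX2 or of PAX8 was called.

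The 3 genes whose log2 fold change was nearest to that of SOX9, searched among the 12201 other tested genes whose mean reached 100 normalized counts, were FLJ22447, at a distance of 0.06 on the log2 scale, the actin-like gene ACTBL2, at 0.07, and FN1, which encodes fibronectin, at 0.10. This likeness rests on 1 comparison of 2 conditions. ACTBL2 resembles other actin genes, so its reads are uncertain.

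Across the related transcription factors and their cofactors, calls were about as frequent as among all genes. In 6 lists (SOX, PAX, tubule regulators, LIM factors and cofactors, nephron progenitor factors, and ureteric or distal factors) 62 genes were tested, of which 7 were higher and 7 lower, or 22.6% called, against 23.0% of all tested genes. Without the 8 factors themselves 56 were tested, 5 of them higher and 6 lower. SOX9 had the largest log2 fold change of the 62 and SOX4 ranked 4. Only SOX9 and MAF were called with a change of 1 or more on the log2 scale.

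Among tubule regulators, 4 of 20 tested genes were higher, 1 was lower and 15 were not called (median log2 fold change 0.02). MAF, a large leucine zipper factor, rose by 1.20 (SE 0.06). PPARGC1A, the coactivator of mitochondrial biogenesis, rose by 0.71 (SE 0.09), and CEBPB rose by 0.38 (SE 0.07). CUX1 had -0.06 (SE 0.05) and PPARA had -0.05 (SE 0.09), and neither was called.

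Among nephron progenitor factors only FOXC1 of 13 tested was called, and it rose by 0.32 (SE 0.07). SALL1, at -0.07 (SE 0.06), was abundant and not called. CITED1, which marks fetal nephron progenitors, had a mean of 3.07 normalized counts. In the LIM list, SSBP4 fell by 0.41 (SE 0.08) and LMO4 by 0.19 (SE 0.07), both of them partners of the LDB1 complex through which LIM homeodomain factors act. LDB1 itself had 0.03 (SE 0.07) and SSBP3 had 0.10 (SE 0.07). These 2 falls were the only calls among 9 tested genes of the LIM list.

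Of 12 tested factors of the distal nephron and collecting duct, 3 were lower and 9 were not called (median log2 fold change 0.01). The Iroquois factor IRX3, which patterns the nephron in frog, fell by 0.87 (SE 0.09), and its relative IRX5 fell by 0.83 (SE 0.13). ELF3, an epithelial ETS factor, fell by 0.43 (SE 0.07). TFAP2A, at -0.22 (SE 0.09), lay just outside the threshold and HOXB7, a nephric duct gene, had -0.03 (SE 0.10). GATA3, a nephric duct factor, had a mean of 9.70 normalized counts and was not tested.

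**Figure D3:**
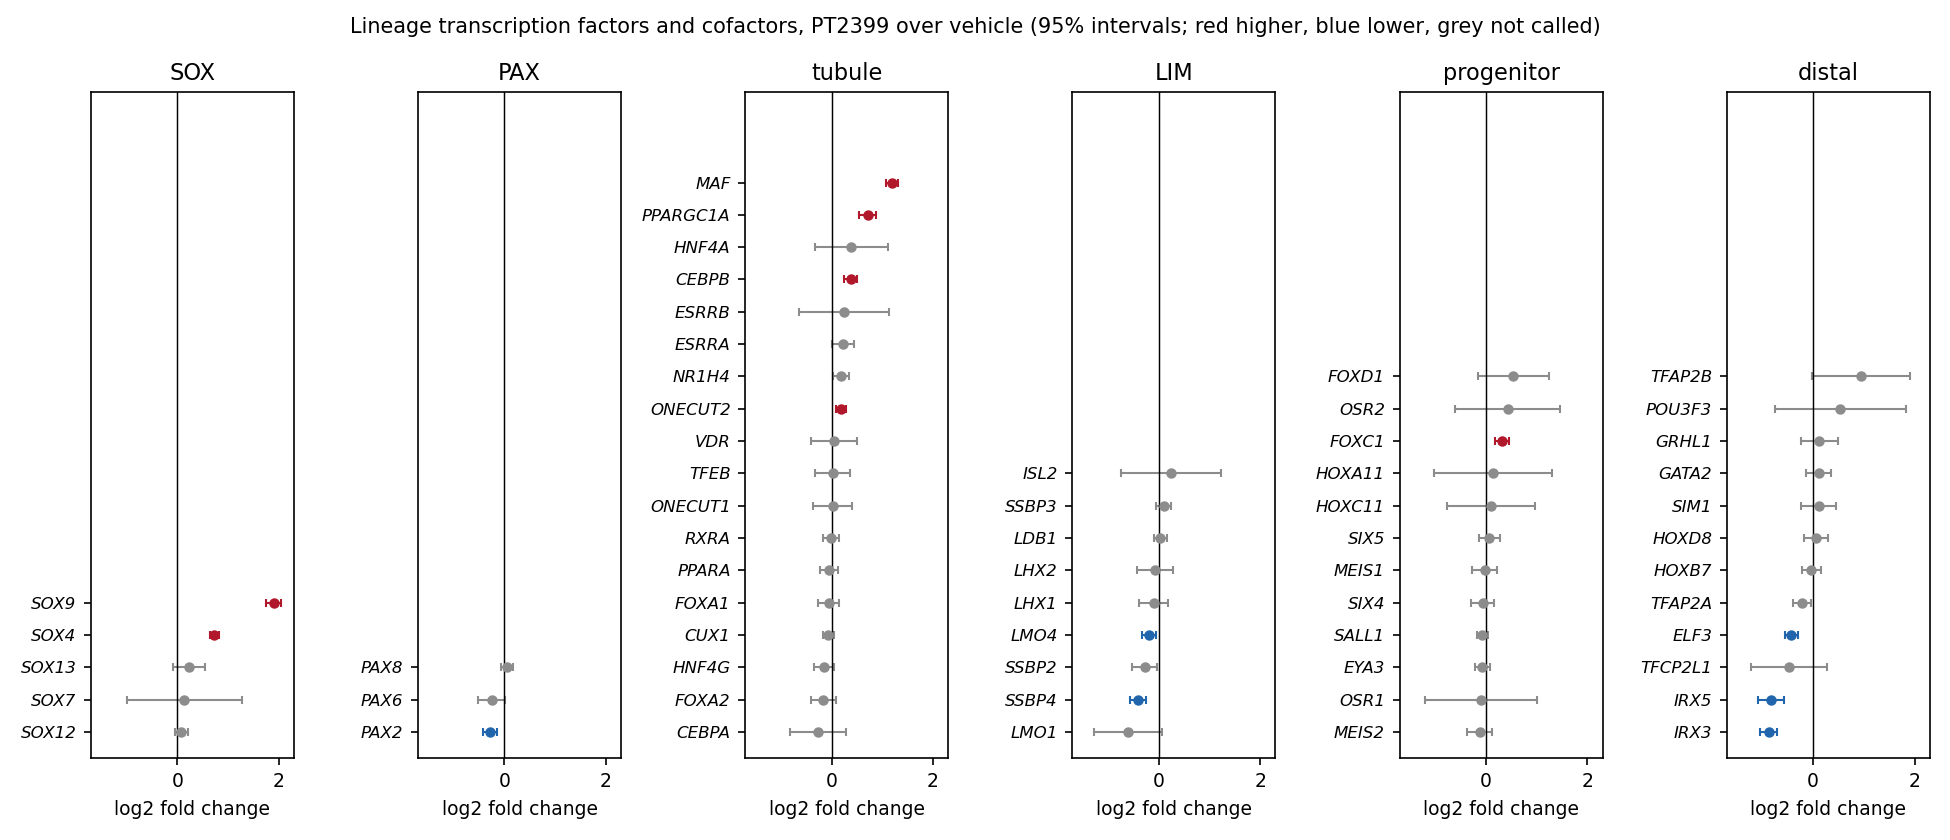
Log2 fold change of PT2399 over vehicle with its 95% interval for 59 of the 62 tested genes in the 6 lists of lineage factors and cofactors; LHX1, HNF4A, the SOX and the PAX factors appear in their own families. SOX9 (1.90) and MAF (1.20) reach farthest to the right, and IRX3 (-0.87) and IRX5 (-0.83) are the called genes farthest to the left.

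Genes linked to the factors did not move as blocks. Markers of injured and repairing tubule cells, in which SOX9 is known to appear, had 6 higher, 2 lower and 9 not called of 17 tested (median 0.24). The list holds HAVCR2, which is not a tubule gene, and without it 8 of 16 were not called and the median was 0.13. VCAM1, an adhesion molecule of failed-repair tubule cells, rose by 2.27 (SE 0.07), and CDH6, a cadherin of the developing nephron, rose by 1.50 (SE 0.05). CD24 fell by 0.59 (SE 0.05) and the integrin ITGB8 fell by 0.38 (SE 0.04). VIM, at -0.08 (SE 0.05), and SPP1, which encodes osteopontin, at 0.01 (SE 0.05), were not called. SOX9 partners and cartilage targets were mostly at the floor, with 9 of 13 rows not tested and COL2A1, the classical cartilage target, at a mean of 0.73 normalized counts. Of the 4 tested, MATN3 fell by 0.44 (SE 0.09), CHST11 fell by 0.31 (SE 0.07), and COL27A1, at 0.21 (SE 0.10), and COL11A2, at 0.11 (SE 0.54), were not called.

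The genes linked to SOX4 in other cells were divided. Of 8 tested, TEAD2, a Hippo pathway factor, rose by 0.42 (SE 0.08), TLE1, a corepressor, rose by 0.41 (SE 0.06), SEMA3C, a semaphorin, fell by 0.39 (SE 0.06), and EZH2, the Polycomb methyltransferase, fell by 0.31 (SE 0.07). NRP1, at -0.05 (SE 0.05), and TUBB3, at -0.01 (SE 0.06), were among the 4 not called. PAX cofactors had 2 higher, 3 lower and 11 not called of 16 tested (median 0.00). TLE1 and the kinase HIPK2, at 0.16 (SE 0.05), rose. TLE3 fell by 0.38 (SE 0.09), and PAXIP1, which couples PAX2 to histone methylation, fell by 0.22 (SE 0.06). Among the methyltransferases of the PAXIP1 complex, KMT2C fell by 0.17 (SE 0.06), whereas KMT2D had 0.04 (SE 0.06) and was not called.

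Signals of ureteric induction, several of which depend on Pax2, Lhx1 or Emx2 in mouse, had 1 higher and 3 lower of 10 tested (median -0.04). FGFR1 fell by 0.43 (SE 0.06), GFRA1, the GDNF coreceptor, fell by 0.21 (SE 0.05), and ETV5, an ETS factor downstream of RET, rose by 0.41 (SE 0.08). WNT4, which drives the early nephron, fell by 1.73 (SE 0.67) at a mean of 16.0 normalized counts, a call lost when p-values of every gene were adjusted together (adjusted p = 0.086). RET itself had a mean of 1.07. FZD1, at 0.06 (SE 0.06), and FGFR2, at 0.07 (SE 0.08), were not called.

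Podocyte and WT1-linked genes had 2 higher, 3 lower and 3 not called of 8 tested (median 0.10), beside the near absence of WT1. SYNPO, which encodes synaptopodin, fell by 0.72 (SE 0.05), PODXL, podocalyxin, by 0.54 (SE 0.06) and BASP1, a WT1 corepressor, by 0.31 (SE 0.08). CD2AP, a slit diaphragm adaptor, rose by 0.19 (SE 0.05), and AMER1, at 0.14 (SE 0.09), was not called. NPHS1, which encodes nephrin and defines podocytes, had a mean of 0.90.

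Target genes of HNF4A, as known from liver, gut or proximal tubule, were largely at the floor, with 18 of 33 rows not tested. Of the 15 tested, 3 were higher, 2 lower and 10 not called (median 0.03). SLC2A2, the glucose transporter GLUT2, rose by 2.38 (SE 0.08), HABP2, a plasma protease, rose by 2.08 (SE 0.22), and SLC17A1, a phosphate and urate transporter, rose by 2.17 (SE 0.35). LRP2, which encodes the endocytic receptor megalin of the proximal tubule, had the largest change of the tested list and fell by 3.87 (SE 1.21; Wald adjusted p = 0.0085), at a scarce 1.92 normalized counts with PT2399, against 28.0 with vehicle. That call was lost under Bonferroni correction. AGT, angiotensinogen, fell by 0.33 (SE 0.07), and SERPINA1, an abundant liver product, had 0.12 (SE 0.06) and was not called. APOB and FABP1, strong HNF4A targets of liver and gut, had means of 0.55 and 0.81.

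**Figure D4:**
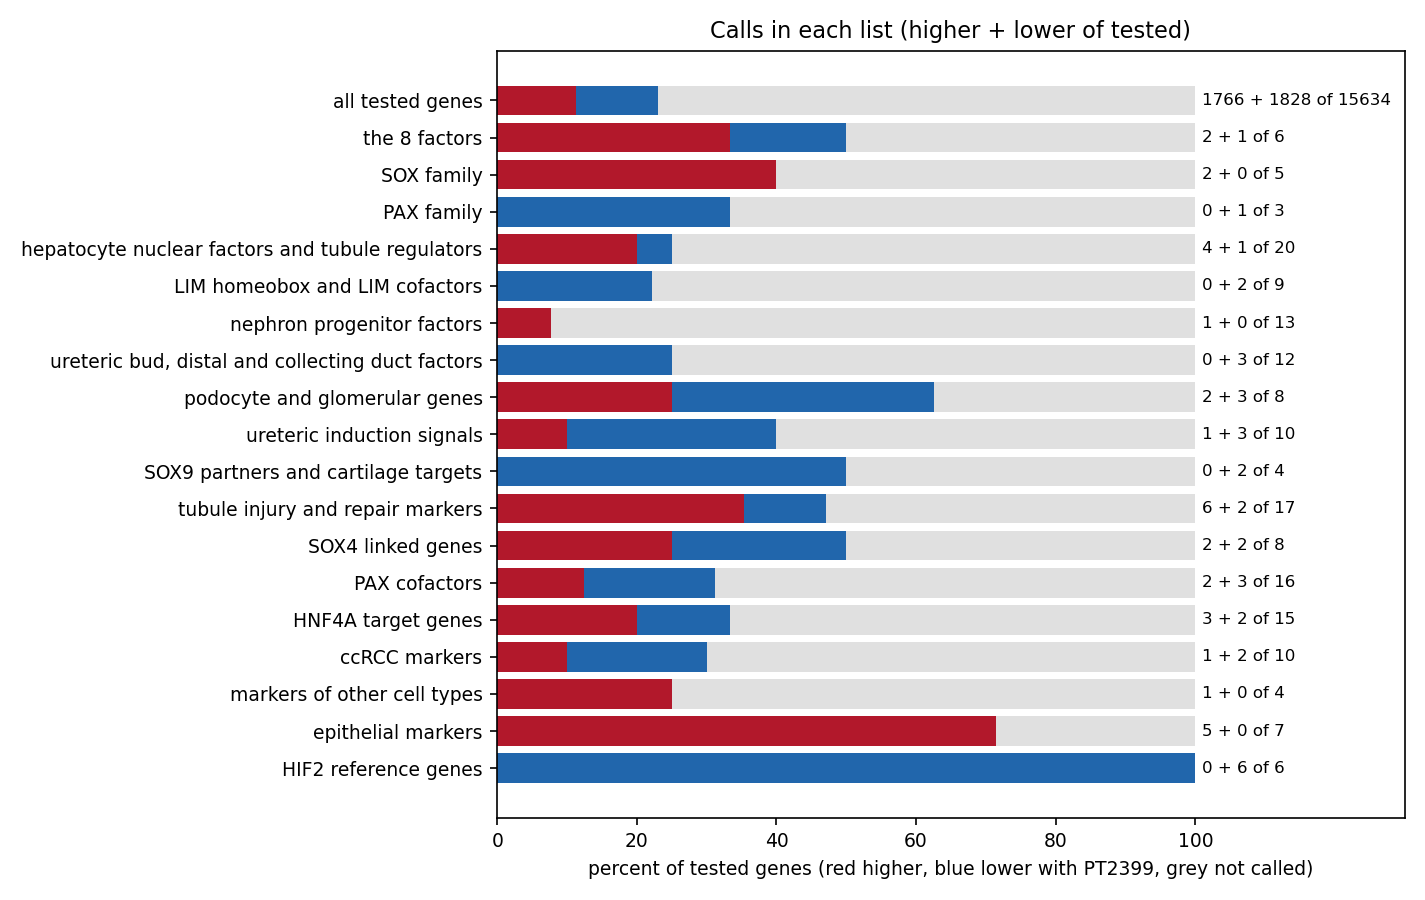
Percent of tested genes called higher (red) and lower (blue) with PT2399 in each list, with the counts at the right; the top bar is all 15634 tested genes, of which 23.0% were called. The 8 factors had 2 higher and 1 lower of 6, nephron progenitor factors 1 of 13, and the 6 HIF2 reference genes all fell.

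The treatment and the identity of the cells were read from marker genes. All 6 HIF2 reference genes fell, from 1.11 (CCND1) to 2.36 (NDRG1) on the log2 scale, with EPAS1, the gene of the HIF2 alpha subunit, at -2.19. The paper reports several of these genes, PTHLH among them, as lowered by PT2399 in OSRC-2 cells, for PTHLH partly from these same polysome data. Their fall was therefore known beforehand and is no independent test. Of 10 ccRCC markers all were tested. Of these, 1 was higher, 7 were not called and 2 were lower, among them CA9, which fell by 1.27 (SE 0.17). The lists overlap: the other lower marker is also a HIF2 reference gene, and the higher one is also counted among the epithelial and injury markers. Of 8 epithelial markers 7 were tested and 5 rose, CDH16, a kidney cadherin, by 1.17 (SE 0.17) and CLDN1 by 0.78 (SE 0.05), while CDH1 had -0.02 (SE 0.17) and EPCAM a mean of 5.92. Of 10 markers of immune, endothelial and stromal cells 9 had rows, with a summed level of 4992 normalized counts with PT2399 and 4506 with vehicle. PTPRC, PECAM1, VWF, CDH5 and DCN, which define leukocytes, endothelium and fibroblasts, had means of 0.51 to 13.2 and none was tested. CD68 (mean 3555), at 0.02 (SE 0.07), and COL1A1 (mean 209), at -0.23 (SE 0.21), were present and not called. ACTA2 (mean 940), a smooth muscle actin, rose by 0.73 (SE 0.09), to 1172 with PT2399, against 709 with vehicle. CD68 made up most of the summed level in both groups, and ACTA2 most of the difference between them. Size factors read from genes with a lone read were 0.782 to 1.10 in PT2399 libraries and 0.900 to 1.19 in vehicle libraries; they did not give whole counts for other genes, so they are no more than a rough guide to relative depth.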

How the data were processed

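Polysome-seq of OSRC-2 cells was deposited as 1 table of 30345 rows, in which single libraries have no column. Per the labels and the methods, the gradient fractions past the monosome peak were combined, and paired-end libraries were made from their RNA with a stranded total RNA kit. The submitters' processing notes list hg38 as the build, with DESeq2 1.22.1, STAR 2.7.3a and bcl2fastq 2.18 beside Salmon, for which no source used here gives a version. The authors' mean normalized count is a signal from DESeq2, whose exact scaling is not settled. The deposited log2 fold change and its SE, also on the log2 scale, are the authors' estimates for PT2399 over vehicle, whose ratio is the deposited Wald score. The authors' two-sided Wald test gave the deposited p-value, and Benjamini-Hochberg adjustment gave the adjusted p-value, which is empty for 14711 rows, nearly all with a mean under 14.5. These columns of the authors' comparison were used because no others give the factors' values; they were not refitted. Per-library totals and a search for batches were therefore not possible.

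Genes with an adjusted p up to 0.05 were called. The factors and the 17 related lists were chosen with earlier results of these data known, and HAVCR2, counted with the tubule injury markers, is not a tubule gene; the count without it was added after the values were seen. Named genes are the 8 factors and their antisense RNAs, the 4 called genes of lowest adjusted p and the 2 most abundant uncalled genes of each list, where it has them, and the 3 genes nearest to SOX9. Genes named at low means, CCND1, LRP2, KMT2C, the other SOX and PAX genes and the neighbours on the chromosome fall outside that rule and were named after their values were seen. A few genes counted in the lists are not reported here by name. Group levels follow from the mean and the fold change for 3 libraries per group. Size factors were read from 1307 genes with a lone read. Whole counts per library were searched for in 200 genes with means of 3 to 10 and found for 0 of them, whereas the search, tested on simulated data, recovered 40 of 40, so no values per library are given. These factors alone therefore do not account for the scaling, which may differ between genes, and a normalized count is not read here as a number of reads. Transcript lengths are those of GENCODE MANE Select transcripts (75.3% of tested genes matched, and all 8 factors). Coordinates, neighbours (68.9% of rows matched) and promoters are from RefSeq on GRCh38.p14. Scripts used Python 3.11.15 with matplotlib 3.10.9, scipy 1.17.1, numpy 2.4.6 and pandas 2.3.3. Alternatives were other thresholds, other adjustments and centring.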

Additional observations from a re-analysis of the deposited data

How the results depend on the processing

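Direction and call of every tested factor held at an adjusted p of at most 0.01, with adjustment over every gene with a p-value, and after centring, which gave 1.89 for SOX9 and -0.30 for PAX2 on the log2 scale; adjustment over genes with a mean of at least 100 left the calls of its 5 factors as they were and does not include HNF4A. With a change of 1 or more on the log2 scale also required, 1 factor was called, 1 higher (SOX9) and 0 lower, so SOX4 (0.73) and PAX2 (-0.29) no longer passed, by the construction of that limit, and 16 of the 55 called genes of the other lists were called. With Bonferroni correction of the authors' DESeq2 p-values 2 factors were called, both higher, and 0 lower, since PAX2 at -0.29 had a corrected p of 0.74, and 36 list genes were called. Over all genes the calls numbered 320 and 1229 under these limits, against 3594. The alternatives for the lists and for 86 other named genes were added after seeing the data. Of 493 values for these 86 genes none reversed in sign, 51 lost the call and 2 gained it (both TFAP2A).

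No paired analysis was possible because the deposited columns carry no replicate numbers. Leaving out single libraries, scaling by housekeeping genes and other pseudocounts were not run, since they need counts per library. Depth limits HNF4A, EMX2 and WT1: their intervals are wide or their counts too few for any statement on a change. The p-values treat the 3 libraries of a group as biological replicates, as the paper describes them. The sample titles only number them as replicates.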
